A study of Homo sapiens with 4 samples.

Results

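The nuclear-encoded respiratory chain genes were followed in human embryoid bodies given TBBD or the vehicle DMSO. They were chosen by symbol: every gene of the array whose platform symbol begins with NDUFA, NDUFB, NDUFC, NDUFS or NDUFV and a digit (complex I), is SDHA to SDHD (complex II), begins with UQCR (complex III), with COX and a digit from 4 to 8 (complex IV), or with ATP5 (complex V). No measured value entered that choice. It gave 83 of the 18640 measured genes, or 0.445%, on 579 probesets (small groups of probes within an exon): 36 genes of complex I, 4 of complex II, 7 of complex III, 18 of complex IV and 18 of complex V. The number of probesets per member ran from 1, for COX7B, to 21, with a median of 6. Embryoid bodies are aggregates in which pluripotent cells begin to differentiate, and the cells here were BG01V, 1 line of human embryonic stem cells with a variant karyotype. The TBBD group was treated at 10 µM during 48 h, in general over days 2 to 4 of aggregation, and the DMSO group received the vehicle. TBBD (ellagic acid) is described by the series title as an inhibitor of methylation at an arginine of histone H3, a mark placed by CARM1. Each group held 2 Affymetrix Human Gene 1.0 ST arrays, numbered replicate 1 and replicate 2, and both groups share the line and the culture protocol.

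The respiratory chain sits in the inner mitochondrial membrane. Complexes I and II pass electrons from NADH and succinate to coenzyme Q, complex III passes them on to cytochrome c, and complex IV passes them to oxygen. Complexes I, III and IV pump protons, and complex V, the ATP synthase, makes ATP as the protons return. Most subunits are encoded in the nucleus and a few core subunits in mitochondrial DNA. Pluripotent cells are known for relying on glycolysis to a large extent, and respiration grows as they differentiate. The mitochondrially encoded transcripts were not analysed here, so the values cover only the nuclear part of the chain.

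The symbol rule took in some genes that are not canonical subunits. NDUFA4 falls under complex I by its name, and its protein is a subunit of complex IV. Among the members 5 encode no subunit: EMC8 (platform symbol COX4NB) of the membrane protein complex of the endoplasmic reticulum, COX7A2L, a supercomplex factor, DMAC2 (ATP5SL) and DMAC2L (ATP5S), which bear on assembly or coupling, and ATP5MGL (ATP5L2), a copy of ATP5MG. A further 7 are tissue-restricted or alternative isoforms: COXFA4L2 (NDUFA4L2), COX4I2, COX6A2, COX6B2, COX7A1, COX7B2 and COX8C. Near-identical copies are common in this family. RefSeq names at least 1 pseudogene after each of 47 members, and signal from such copies cannot be told apart from that of the gene where probes match both.

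The 4 arrays had median log2 signals of 6.39 to 6.42 over all probesets. Whether the replicates came from separate cultures is not in the labels, so each p-value measures only the spread between these samples, which may be technical. The arrays differed more by replicate number than by treatment: 653 of 18640 genes passed the test between replicate 2 and replicate 1, against 0 between TBBD and DMSO. The 2 fits differ in their terms and in the changes they can call, so these counts are not on 1 scale. Across all genes the standard deviation of the difference was 0.286 between the numbers and 0.130 between the treatments. Among the lineage markers, the median log2 signal of 14 hepatic and visceral endoderm genes was 6.84 (TBBD) and 6.68 (DMSO) on the replicate 2 arrays, against 5.61 (TBBD) and 5.45 (DMSO) on the replicate 1 arrays. For 15 mesenchymal genes it was 10.22 and 10.09 on replicate 2, against 8.34 and 8.15 on replicate 1, in the same order of treatments. For 13 pluripotent cell genes it was 6.65 and 7.20 on replicate 2, against 7.54 and 7.75 on replicate 1. All values are for bulk RNA, where fewer cells of a type and less RNA per cell cannot be told apart.

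With TBBD, the log2 signal of each of the 83 genes lay within 0.30 of DMSO, and no member passed the test. NDUFS7, a core iron-sulfur subunit of complex I, and UQCRB and UQCR11, small subunits of complex III, had the highest differences as means over probesets, though UQCR11 turned to -0.24 with the median over its probesets. NDUFB6, an accessory subunit of complex I, and the non-subunit genes DMAC2 and ATP5MGL had the lowest. With limma's moderated test on log2 values over all genes, 0 of 83 members had an adjusted p under 0.05, with a background of 0% of all genes. At an unadjusted p under 0.05 there were 0 of 83 members as well, with a background of 0.746% of genes (139). Differences of the members ran from -0.29 to 0.26, with 49 of 83 under 0.1 in size and 0 over 0.3. Of all 18640 genes 527, or 2.83%, were over 0.3. The standard deviation of the difference across the 83 members was 0.127, against 0.130 across all genes. The 95% confidence intervals of all 83 members lay between -0.93 and 0.82, so none reached a log2 difference of 1 in either direction. Their median half-width was 0.35. These intervals are not adjusted for the number of genes, so a call would take a larger difference than that. The error of this comparison also holds the difference between the replicate numbers, since the fit has the treatment as its only term.

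As a group the members lay a little below DMSO, at a median log2 difference of -0.029 with 33 higher and 50 lower. The share lower was read against 51.2% of all genes lower, whose median was -0.0035. Of the brighter 9320 genes 5272 were lower, with a median of -0.018. The sign of the group changed with the replicate number. Within replicate 1, TBBD minus DMSO had a median of -0.063 over the members, with 27 higher and 56 lower, beside -0.021 over all genes. Within replicate 2 the median was 0.019, with 46 higher and 37 lower, beside 0.012 over all genes. Each number holds 1 array of each treatment, so these are values with no test. Lower in both numbers were 28 members, or 33.7%, against a background of 23% of all genes and 25.9% of the brighter 9320. Higher in both were 18 members, or 21.7%, against a background of 21.5% of all genes and 17.0% of the brighter 9320. The other 37 members changed sign between the numbers. Both TBBD arrays lay above both DMSO arrays for 9 members and below them for 13. Among all 18640 genes the counts were 1948 and 1940, and among the brighter 9320 they were 572 and 938. Leaving out DMSO replicate 1 turned the median over the members to 0.039.

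**Figure D1:**
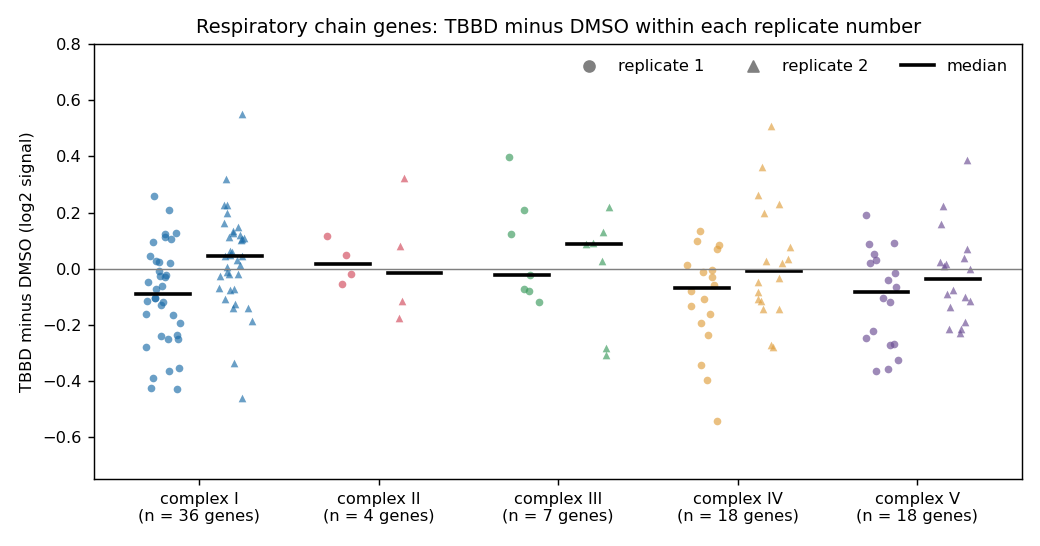
TBBD minus DMSO in log2 signal for each of the 83 genes, by complex, within replicate 1 (circles) and within replicate 2 (triangles), with the median of each set as a bar. For complex I the median is -0.088 in replicate 1 and 0.046 in replicate 2, and in every complex points lie on both sides of 0.

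In complex I the matrix arm takes electrons from NADH through NDUFV1, NDUFV2 and NDUFS1 to the iron-sulfur subunits next to the membrane, NDUFS7 and NDUFS8. NDUFS7 had a log2 signal of 6.68 and 6.77 with TBBD, against 6.47 and 6.45 with DMSO. Both TBBD arrays lay above both DMSO arrays, and 8 of its 9 probesets were higher with TBBD. The difference was 0.26 ± 0.11 (SE, n = 2 each), and its 95% confidence interval of -0.026 to 0.56 includes 0 (limma adjusted p = 1, unadjusted p = 0.0662). NDUFS8, its neighbour in the same electron path, went the other way at 6.42 and 6.54 with TBBD, against 6.67 and 6.72 with DMSO. Both TBBD arrays lay below both DMSO arrays, with a difference of -0.22 ± 0.12 (SE) whose interval from -0.52 to 0.083 includes 0. NDUFV1, which binds NADH, differed by 0.011 ± 0.13 (-0.17 with the median over probesets), NDUFV2 by 0.035 ± 0.11, NDUFS1 by 0.019 ± 0.12 and NDUFS3 by -0.12 ± 0.16. The 6 core genes read had a median of 0.015, and the 28 accessory genes a median of -0.030. Among the accessory genes NDUFB6 stood at 6.18 and 5.86 with TBBD, against 6.28 and 6.32 with DMSO. Both TBBD arrays were lower, and the difference of -0.28 ± 0.15 did not pass. Its probesets disagreed, with differences between -1.50 and 0.084 and a median-based difference of -0.099. Over the 36 genes of complex I 15 were higher and 21 lower, with a median of -0.023.

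Complex II, which also oxidises succinate in the citric acid cycle, has 4 genes and all were read. SDHA, the flavoprotein, had 8.28 and 8.30 with TBBD, against 8.30 and 8.48 with DMSO, and a difference of -0.097 ± 0.12 (SE). SDHB, the iron-sulfur subunit, had 8.04 and 7.74 with TBBD, against 8.09 and 7.41 with DMSO. Both TBBD arrays lay between the DMSO arrays, and its difference was 0.14 ± 0.26. The membrane anchors SDHC and SDHD differed by -0.033 ± 0.18 and 0.099 ± 0.11. In complex III UQCRB had 6.06 and 6.08 with TBBD, against 5.85 and 5.86 with DMSO, so that both TBBD arrays were higher, as were all 7 of its probesets. Its difference was 0.21 ± 0.11, with an interval from -0.067 to 0.49, and 0.34 with the median over probesets. UQCR11 had 6.64 and 6.74 with TBBD, against 6.24 and 6.65 with DMSO. DMSO replicate 2 lay just above TBBD replicate 1, so the groups overlapped, and only 2 of its 5 probesets were higher, the highest by 1.59, so its mean difference of 0.24 ± 0.17 rests on few probes. It was -0.24 with the median over probesets and 0.039 without DMSO replicate 1. The core proteins UQCRC1 and UQCRC2 and the Rieske protein UQCRFS1 differed by -0.093 ± 0.15, -0.046 ± 0.12 and 0.0066 ± 0.12. The median was 0.033 over the 4 genes of complex II and 0.007 over the 7 of complex III.

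Complex IV had the lowest median of the complexes, -0.066, with 6 genes higher and 12 lower. Of its 18 genes 9 were lower in both replicate numbers and 5 were higher in both. The backgrounds, in that order, were 23% and 21.5% of all genes, and 25.9% and 17.0% of the brighter 9320. The 10 common-isoform subunit genes of complex IV had a median of -0.11, with 2 higher and 8 lower. COX5A, which binds no metal and sits on the matrix side, had 9.04 and 8.86 with TBBD, against 8.94 and 8.83 with DMSO, and a difference of 0.066 ± 0.13 (SE). COX6B1, a subunit facing the space between the membranes, had 8.90 and 9.01 with TBBD, against 9.06 and 9.09 with DMSO, with both TBBD arrays lower and a difference of -0.12 ± 0.12, or -0.25 with the median over probesets. COX4I1 differed by -0.020 ± 0.19, COX6C by 0.052 ± 0.13 and COX7A2 by -0.15 ± 0.18. In complex V, the genes of the catalytic F1 head and its stalk had 1 of 5 higher and 4 lower. ATP5F1B, the catalytic beta subunit, had 10.27 and 10.23 with TBBD, against 10.60 and 10.21 with DMSO. Only DMSO replicate 1 stood apart, and the difference was -0.15 ± 0.17. ATP5F1D, the delta subunit, had 7.01 and 6.96 with TBBD, against 7.28 and 7.10 with DMSO, with both TBBD arrays lower and a difference of -0.20 ± 0.12, or -0.10 with the median over probesets. ATP5F1E, the epsilon subunit, went the other way at 6.54 and 6.63 with TBBD, against 6.52 and 6.24 with DMSO, or 0.20 ± 0.14. That direction was lost with the median over probesets (-0.028), and the difference was 0.063 without DMSO replicate 2. As means over probesets the 3 genes of the proton-carrying c-ring lay close to 0, ATP5MC1 at 0.016 ± 0.12, ATP5MC2 at -0.012 ± 0.12 and ATP5MC3 at 0.014 ± 0.11. With the median over probesets all 3 turned sign, to -0.021, 0.14 and -0.37 in that order. Over the 18 genes of complex V the median was -0.022, with 6 higher and 12 lower.

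The replicate numbers separated some of these genes where the treatment did not. NDUFA6, an accessory subunit of complex I, was lower on the replicate 2 arrays and was the 1 member that passed the test. COX5B and COX8A of complex IV, SDHB of complex II and DMAC2 came next, all lower on replicate 2 and all short of the threshold. With the treatment as a term, limma called 1 of 83 members, or 1.2%, at an adjusted p under 0.05, against a background of 3.5% of all genes. That member was lower, and the background of lower calls was 1.21%. At an unadjusted p under 0.05 there were 11 members, or 13.3%, against a background of 18.2%. In both directions pooled, the shares of members past these thresholds were no larger than those of all genes. Of these 11 genes 10 were lower on replicate 2, or 12% of the members against a background of 9.1% of all genes, and 1 was higher. Of the brighter 9320 genes, which include 71 of the members, 1306 were lower at that threshold, a larger share than the 12% of the members. In either direction 25.1% of the brighter genes passed it. The members spread less around their median than genes in general, with a standard deviation across genes of 0.183, against 0.286 for all genes. Both replicate 2 arrays lay below both replicate 1 arrays for 32 members and above them for 12. Among all 18640 genes the counts were 4830 and 4670, and among the brighter 9320 they were 3156 and 2278. Separation by number was thus common among all genes.

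**Figure D2:**
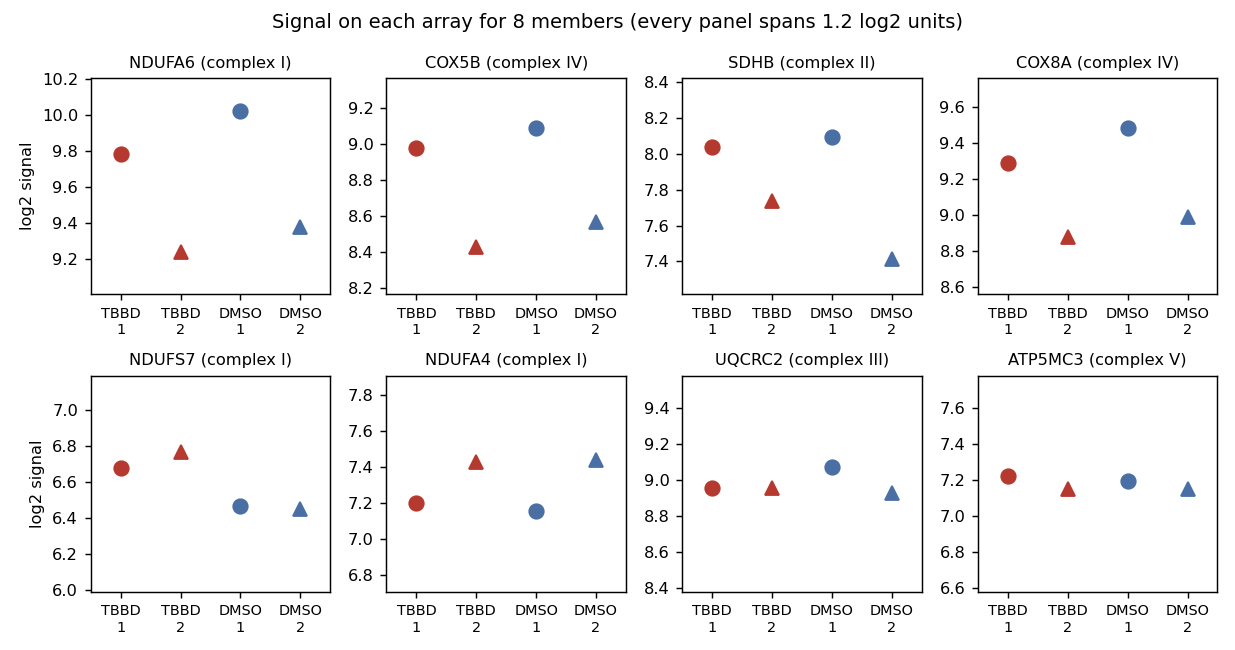
Log2 signal on each array for 8 genes, with TBBD in red and DMSO in blue, replicate 1 as circles and replicate 2 as triangles, and every panel spanning 1.2 log2 units. In the upper row (NDUFA6, COX5B, SDHB, COX8A) both replicate 2 arrays lie below both replicate 1 arrays; in the lower row NDUFS7 separates by treatment, NDUFA4 is higher on replicate 2, and UQCRC2 and ATP5MC3 vary little.

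NDUFA6 had a log2 signal of 9.24 (TBBD) and 9.37 (DMSO) on the replicate 2 arrays, against 9.78 (TBBD) and 10.02 (DMSO) on the replicate 1 arrays. The 2 numbers did not overlap, and the gap was of like size with either treatment, -0.55 on TBBD arrays and -0.65 on DMSO arrays. The difference was -0.60 ± 0.12 (SE), with a 95% confidence interval from -0.87 to -0.32 (limma adjusted p = 0.0428). Of its 6 probesets 5 were lower on replicate 2 with both treatments and 1 was higher. The call is close to the threshold: the adjusted p was 0.0667 with the median over probesets, 0.0585 after a second quantile normalization and 0.0623 with an intensity trend in the variance prior. COX5B, a zinc-binding subunit of complex IV, had 8.43 (TBBD) and 8.57 (DMSO) on replicate 2, against 8.98 and 9.09 on replicate 1. Its gap was -0.55 on TBBD arrays and -0.52 on DMSO arrays, and the difference of -0.54 ± 0.11 had an adjusted p of 0.0575 in limma. It passed under some other settings, with a difference of -0.83 and adjusted p = 0.0232 for the median over probesets, where NDUFA6 did not pass. COX5B also has 8 named pseudogenes, and 4 of its 6 probesets were lower with both treatments.

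SDHB had 7.74 (TBBD) and 7.41 (DMSO) on replicate 2, against 8.04 and 8.09 on replicate 1. The numbers did not overlap, but the gap was uneven, -0.30 on TBBD arrays and -0.68 on DMSO arrays, and the difference of -0.49 ± 0.13 (SE) did not pass (limma adjusted p = 0.109). SDHC stood at -0.31 ± 0.12, SDHD at -0.063 ± 0.11 and SDHA at 0.095 ± 0.12. So, as means over probesets, 3 of the 4 genes of complex II were lower, with a median of -0.19, while the flavoprotein gene SDHA was not. With the median over probesets SDHA stood at -0.021 and SDHD at 0.047, so which gene was the exception depends on that choice. COX8A, a small subunit whose protein spans the membrane, had 8.88 (TBBD) and 8.99 (DMSO) on replicate 2, against 9.29 and 9.48 on replicate 1. All 4 of its probesets were lower with both treatments, and the difference was -0.45 ± 0.12 (adjusted p = 0.092). COX6A1 was lower by a like amount with either treatment, at 9.47 and 9.59 on replicate 2, against 9.79 and 9.87 on replicate 1, or -0.30 ± 0.11. DMAC2 stood at -0.44 ± 0.12 and ATP5MGL at -0.38 ± 0.12. NDUFA3 at -0.41 ± 0.13 and NDUFA7 at -0.28 ± 0.12, both accessory genes of complex I and named here after their values were seen, complete the 10 lower genes at an unadjusted p under 0.05.

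A few genes stood the other way. ATP5ME, a subunit of the membrane part of the ATP synthase, had 7.997 (TBBD) and 7.77 (DMSO) on replicate 2, against 7.57 and 7.59 on replicate 1. Both replicate 2 arrays were higher, by 0.30 ± 0.12 (SE, limma adjusted p = 0.254). NDUFA4 had 7.43 and 7.44 on replicate 2, against 7.20 and 7.16 on replicate 1, or 0.26 ± 0.11 (adjusted p = 0.304), with 4 of its 6 probesets higher with both treatments and a median-based difference of 0.091. UQCR11 had 6.74 and 6.65 on replicate 2, against 6.64 and 6.24 on replicate 1. These groups separate by a small margin, and the difference of 0.25 ± 0.13 was 0.098 on TBBD arrays and 0.41 on DMSO arrays, and turned to -0.085 with the median over probesets. All 3 missed the adjusted threshold.

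Over all members the shift between the numbers was small and mostly downward. Its median was -0.075, with 25 higher and 58 lower on replicate 2, where 50.6% of all genes were lower with a median of -0.0024. The brighter 9320 genes had a median of -0.037. Lower with both treatments were 41 members, or 49.4%, against a background of 31.6% of all genes and 38.9% of the brighter 9320. Higher with both were 18 members, or 21.7%, against a background of 30.4%. The shift was larger on the DMSO arrays, at a median of -0.13 with 60 lower and 23 higher, than on the TBBD arrays, at -0.029 with 46 lower and 37 higher. These medians rest on 1 array each and were not tested against each other. Complex II had 1 gene higher and 3 lower (median -0.19), complex IV had 4 higher and 14 lower (median -0.14), and complex V had 2 higher and 16 lower (median -0.10). Complex III had 2 higher and 5 lower (median -0.073). Complex I was the most mixed, with 16 higher and 20 lower and a median of -0.029.

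Within complex IV the 10 common isoforms had 1 gene higher and 9 lower and a median of -0.22. COX4I1, the regulatory subunit that can be phosphorylated, had 7.62 (TBBD) and 7.42 (DMSO) on replicate 2, against 7.67 and 7.91 on replicate 1, or -0.27 ± 0.14 (SE). COX5A stood at -0.14 ± 0.11, COX6C at -0.15 ± 0.11 and COX7A2 at -0.29 ± 0.12, while COX6B1 stood at 0.072 ± 0.12. With the median over probesets COX4I1 and COX7A2 were no longer lower, at 0.0096 and 0.13. COX7B, on 1 probeset, had 6.90 (TBBD) and 6.67 (DMSO) on replicate 2, against 6.64 and 6.98 on replicate 1, so that the treatments went opposite ways. Within complex V all 5 genes of the F1 head and its stalk had differences below 0, from -0.22 to -0.065, and 3 of the 5 were lower with both treatments. ATP5F1B had 10.23 and 10.21 on replicate 2, against 10.27 and 10.60 on replicate 1, or -0.22 ± 0.13. The alpha subunit gene ATP5F1A had 8.41 (TBBD) and 8.63 (DMSO) on replicate 2, against 8.69 and 8.50 on replicate 1, or -0.080 ± 0.14, with opposite directions by treatment. As means over probesets, the c-ring genes were each lower with both treatments by small amounts, ATP5MC1 at -0.12 ± 0.12, ATP5MC2 at -0.075 ± 0.12 and ATP5MC3 at -0.058 ± 0.11, the last of which was 0.11 with the median over probesets. The core genes of complex I did not share a direction, with 3 higher and 3 lower, from -0.076 for NDUFV2 to 0.13 for NDUFV1.

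**Figure D3:**
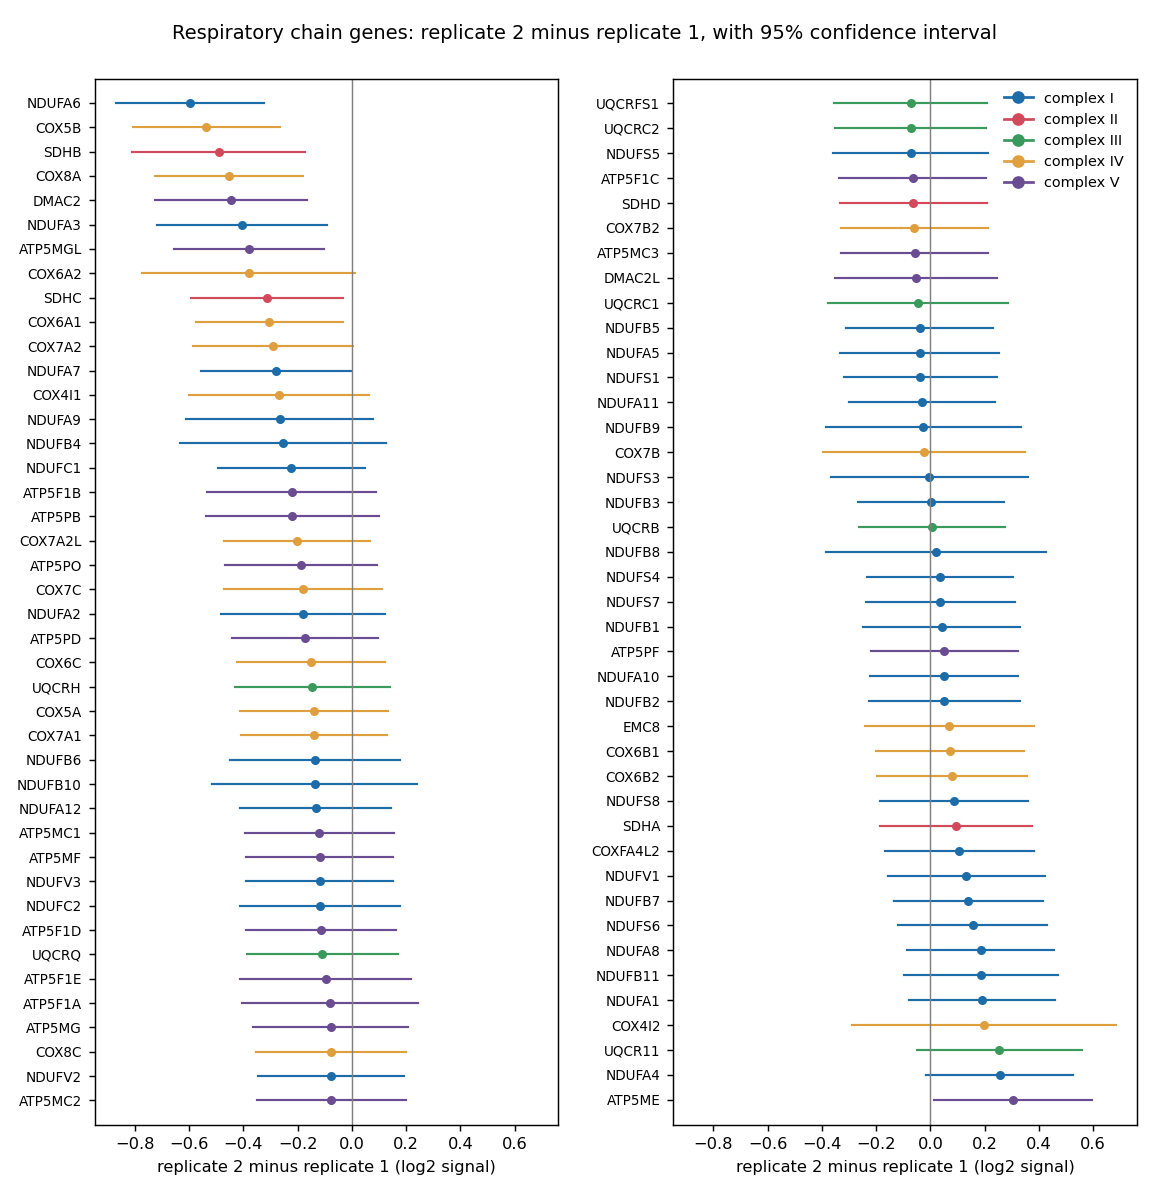
Replicate 2 minus replicate 1 in log2 signal for all 83 genes, ordered from lowest to highest, with the 95% confidence interval of each and colours for the complexes by symbol. NDUFA6 is lowest at -0.60 and ATP5ME highest at 0.30, and most intervals include 0.

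Of the tissue-restricted isoforms, which in adults mark heart, skeletal muscle, lung or testis, 4 of 7 were dim. COX4I2, COX6B2, COX7B2 and COX8C, together with ATP5MGL, had mean log2 signals under 5.66, the 95th percentile of 371 olfactory receptor genes, a family these cells are not expected to express. Whether these 5 genes were expressed is therefore uncertain, and the other 78 members lay above that level. COX4I2, the isoform linked to low oxygen in lung, had 5.55 (TBBD) and 5.19 (DMSO) on replicate 2, against 4.90 and 5.44 on replicate 1. Neither treatment nor number set its arrays apart. COX6A2, the heart and skeletal muscle isoform, had 5.96 and 5.45 on replicate 2, against 6.02 and 6.15 on replicate 1, or -0.38 ± 0.17 (SE) and -0.20 with the median over probesets. COX7A1, of the same tissues, had 5.61 and 5.65 on replicate 2, against 5.74 and 5.80 on replicate 1, or -0.14 ± 0.11 and -0.29 with the median over probesets. COXFA4L2, induced by low oxygen, had 6.11 and 6.27 with TBBD, against 6.01 and 6.07 with DMSO, both TBBD arrays being higher by 0.15 ± 0.12. None of the 7 isoforms passed either test. The 18 heart and skeletal muscle markers had a median replicate difference of -0.054, with 1 called higher and 2 called lower by limma. The background of calls was 3.5% of all genes.

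Gene lists around the chain were read the same way, and 0 genes of any of these 7 lists passed limma's adjusted threshold in either comparison. The background of all genes was 0% for TBBD and 3.5% for the replicate numbers. At an unadjusted p under 0.05 each list held 0 genes for TBBD, against a background of 0.746%. For the replicate numbers each held 2 to 10, from 11.1% of the biogenesis list to 35.3% of the citric acid cycle list, against a background of 18.2%. The 49 assembly factors read, which build the complexes without staying in them, had a median of -0.13 on replicate 2, with 15 higher and 34 lower. NDUFAF4, a complex I assembly factor, had 6.49 (TBBD) and 5.78 (DMSO) on replicate 2, against 6.84 and 7.16 on replicate 1, or -0.87 ± 0.23 (SE, adjusted p = 0.0957). COX19, a copper-handling factor for complex IV, stood at -0.50 ± 0.13 (adjusted p = 0.0969). The 76 mitochondrial ribosomal proteins had 16 higher and 60 lower (median -0.11), and the 24 import genes 3 higher and 21 lower (median -0.12). Among them TIMM10, a carrier of inner membrane proteins, stood at -0.52 ± 0.15, and HSPD1, the matrix chaperonin, at -0.48 ± 0.12. The 18 regulators of mitochondrial biogenesis had 3 higher and 15 lower (median -0.095). The shifts of these 4 lists were larger on the DMSO arrays. The medians there were -0.14 for assembly factors, -0.19 for ribosomal proteins, -0.28 for import genes and -0.15 for biogenesis. On the TBBD arrays they were -0.058, -0.036, 0.039 and -0.034 in that order, with 13 import genes higher and 11 lower. The treatments were not tested against each other. TFAM, which packages and transcribes mitochondrial DNA, had 7.29 and 7.34 on replicate 2, against 7.47 and 7.77 on replicate 1, or -0.30 ± 0.12.

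The carriers and the pathways that feed the chain were less uniform. The 16 genes of cytochrome c and coenzyme Q synthesis had 6 higher and 10 lower (median -0.032). CYCS, cytochrome c itself, had 6.88 (TBBD) and 6.96 (DMSO) on replicate 2, against 7.37 and 7.37 on replicate 1, a gap of -0.45 ± 0.12 (SE, limma adjusted p = 0.0931). PDSS1, which makes the tail of coenzyme Q, stood at -0.64 ± 0.14 (adjusted p = 0.0663). The 17 genes of the citric acid cycle and pyruvate dehydrogenase had 6 higher and 11 lower (median -0.032), yet their largest differences were upward. SUCLG2, of succinyl-CoA synthetase, stood at 0.51 ± 0.13 and IDH2, the mitochondrial isocitrate dehydrogenase that uses NADP, at 0.47 ± 0.12. IDH2 had 8.64 and 8.66 on replicate 2, against 8.29 and 8.09 on replicate 1, with no overlap. The 19 glycolysis genes had 8 higher and 11 lower (median -0.11). LDHB, a lactate dehydrogenase subunit, stood at -0.51 ± 0.12 (adjusted p = 0.0677), and ENO2 at -0.61 ± 0.25. For TBBD the medians of these 7 lists lay between -0.083 (import) and -0.018 (glycolysis and biogenesis). The import median was -0.25 within replicate 1 (2 higher, 22 lower) and 0.083 within replicate 2 (16 higher, 8 lower). For glycolysis it turned from 0.11 to -0.090, for biogenesis from -0.10 to 0.0090 and for ribosomal proteins from -0.14 to 0.0013. The medians of the remaining lists were below 0 within both numbers.

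**Figure D4:**
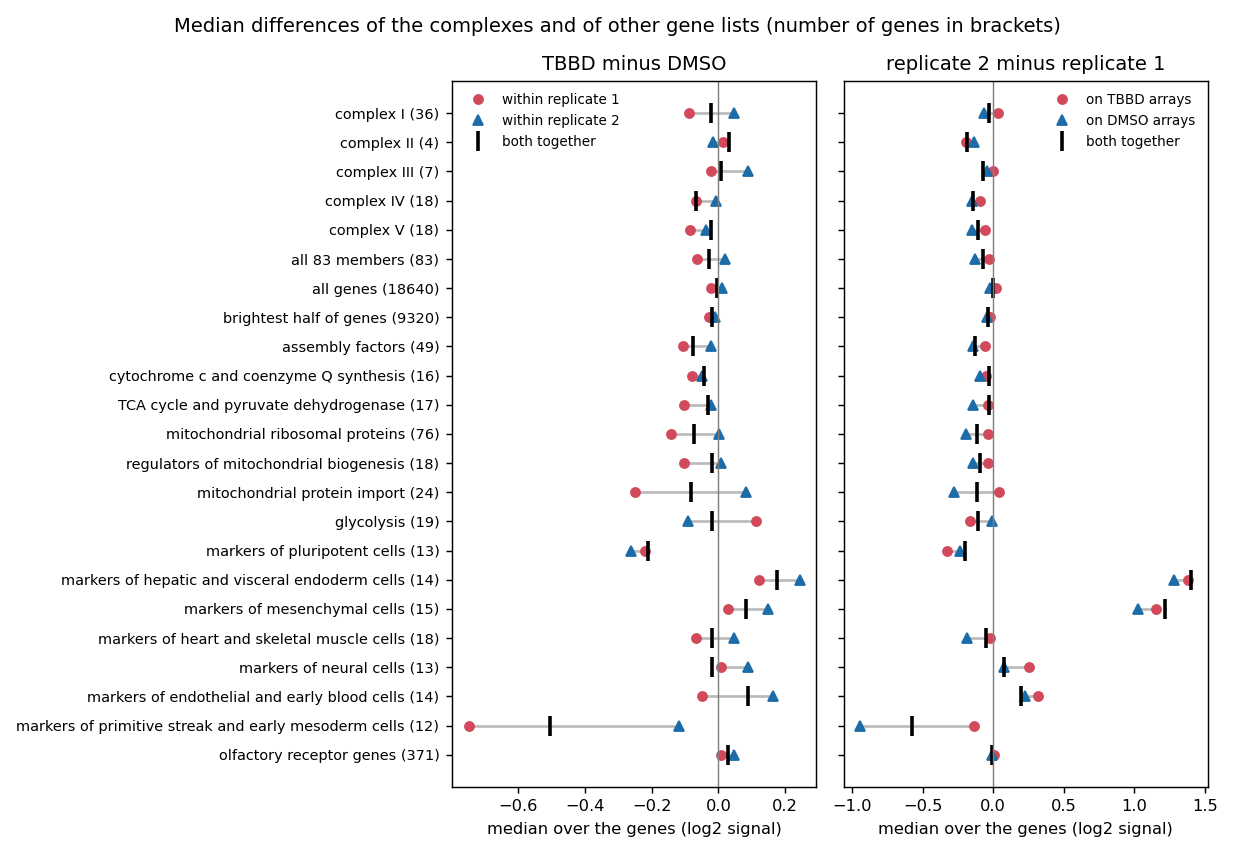
Median log2 difference over the genes of each complex, of the surrounding lists and of the lineage markers, for TBBD minus DMSO (left, within replicate 1 and within replicate 2) and for replicate 2 minus replicate 1 (right, on TBBD and on DMSO arrays), with the fit over all 4 arrays as a bar and the horizontal scales unequal. In the fit the complexes lie between -0.19 and 0.033 over both panels, while the hepatic and visceral endoderm markers stand at 1.40 and the mesenchymal markers at 1.22 between the replicate numbers.

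The medians of some lineage marker lists differed far more between the numbers than those of the respiratory chain. Over all 18640 genes the background of limma calls between the numbers was 3.5%, with 428 genes called higher and 225 lower. Of the 14 hepatic and visceral endoderm markers 9 were called higher on replicate 2 by limma, with a median of 1.40. AFP, the fetal serum protein, had 8.22 (TBBD) and 7.98 (DMSO) on replicate 2, against 5.85 and 5.50 on replicate 1. Of the 15 mesenchymal markers 11 were called higher, with a median of 1.22, and DCN, a matrix proteoglycan, differed by 3.21 ± 0.20 (SE). Of the 14 endothelial and early blood markers 6 were called higher (median 0.20), and of the 13 neural markers 2 were (median 0.078). Of the 13 pluripotent cell markers 1 was called higher and 4 lower (median -0.20). Of the 12 primitive streak and early mesoderm markers 1 was called lower (median -0.57), and for TBBD against DMSO their median was -0.51, with 0 called. That median was -0.75 within replicate 1 and -0.12 within replicate 2, where 4 of the 12 were higher. For TBBD over the 4 arrays, 13 of 13 pluripotent cell markers were lower (median -0.21) and 14 of 14 hepatic and visceral endoderm markers higher (median 0.18), again with 0 called and, at an unadjusted p under 0.05, 1 and 0. Of all genes 51.2% were lower for TBBD, and 0.746% passed limma's unadjusted threshold. Within both replicate numbers, 8 of those 13 markers were lower and 9 of those 14 higher, against backgrounds of 23% and 21.5% of all genes. The part of these shifts in the values of the respiratory chain genes was not tested.

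The 4 promoters of the subunit genes lowest on replicate 2 and that of NDUFS7, the gene highest with TBBD, are shown for what stands at their starts. Each line is the sense strand from 120 bases before the RefSeq start through its first 20 bases, counted so that the start is base 1 and the base before it -1, on GRCh38.p14. NDUFA6 lies at chr22:42090753-42090892 (minus strand), COX5B at chr2:97645942-97646081 (plus), SDHB at chr1:17054013-17054152 (minus), COX8A at chr11:63974500-63974639 (plus) and NDUFS7 at chr19:1383787-1383926 (plus). Capitals mark matches, on either strand, to GCGCANGCG (NRF1), CCGGAAG (ETS family), AAGATGGCG (YY1) or AAGGTCA (estrogen-related receptors), factors known to drive respiratory genes.
NDUFA6: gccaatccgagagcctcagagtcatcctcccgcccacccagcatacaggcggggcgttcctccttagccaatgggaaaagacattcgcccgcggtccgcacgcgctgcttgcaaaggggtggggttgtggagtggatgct
COX5B: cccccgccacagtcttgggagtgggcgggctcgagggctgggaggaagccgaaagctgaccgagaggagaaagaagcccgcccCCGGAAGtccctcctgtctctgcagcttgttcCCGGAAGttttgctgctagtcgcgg
SDHB: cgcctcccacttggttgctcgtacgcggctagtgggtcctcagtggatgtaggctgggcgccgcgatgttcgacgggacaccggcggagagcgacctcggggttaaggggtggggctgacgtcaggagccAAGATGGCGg
COX8A: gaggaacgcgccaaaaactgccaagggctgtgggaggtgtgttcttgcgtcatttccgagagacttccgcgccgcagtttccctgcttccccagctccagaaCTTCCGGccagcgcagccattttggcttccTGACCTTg
NDUFS7: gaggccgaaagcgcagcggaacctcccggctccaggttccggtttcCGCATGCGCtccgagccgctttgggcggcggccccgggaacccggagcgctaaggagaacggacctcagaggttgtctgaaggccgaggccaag
COX5B holds CCGGAAG beginning at -37 and again at -5. SDHB holds AAGATGGCG beginning at 11, COX8A holds CCGGAAG on the other strand at -18 and AAGGTCA on the other strand at 13, and NDUFS7 holds the NRF1 letters on the other strand at -74. In NDUFS7 AAGATGGCG also begins at 18, where the end of the printed line cuts it, so it is not in capitals. NDUFA6 holds none of the 4 in this stretch, and its AAGATGGCG begins past it, at 26.

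RefSeq promoters of 250 bases before to 50 bases after the start were found for 67 of the 83 members. The NRF1 letters stood in 31.3% of these members (21), against 13.1% of 14543 measured genes with a promoter. The YY1 letters stood in 13.4% (9), against 3.38%, the letters of the estrogen-related receptors in 14.9% (10), against 4.12%, and the ETS letters in 29.9% (20), against 17.1%. At least 1 of these 4 was present in 41 members, or 61.2%, against 32.1%. GGGCGG, the SP1 box common to many promoters, stood in 61.2% of members, against 66.1%. The motifs did not sort the replicate difference: the median was -0.063 for members with the NRF1 letters and -0.088 for the 46 without, and -0.045 with the YY1 letters and -0.076 for the 58 without. With the letters of the estrogen-related receptors it was -0.079, against -0.073 for the 57 without. A match is a string of letters and not a tested site, and its absence says only that these letters are not in this window.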

How the data were processed

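RNA was measured on 4 arrays, TBBD replicates 1 and 2 and DMSO replicates 1 and 2. Trizol RNA was labelled with biotin, per the labels' protocols. The authors used RMA, per the submitters' processing notes, in a version not given in the sources used here. What the authors deposited are log2 signals, 1 per probeset and array, a scale read from the values (highest 13.7 to 13.8 per array). No detection calls or background values were used here.

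Of 247312 probesets, 277 held a placeholder value in 358 cells and were left out. The values of 218927 probesets with 1 gene symbol in the platform annotation were averaged per gene, which gave 18640 genes. Of 18683 platform symbols 2528 were brought up to date with RefSeq. Promoter sequences are RefSeq's, on GRCh38.p14.

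TBBD was compared with DMSO by limma (lmFit, eBayes, two-sided) with treatment as the only term. Replicate 2 was compared with replicate 1 with treatment as a further term. P-values were adjusted by Benjamini-Hochberg over all 18640 genes, with a threshold of 0.05. Lists were described by counts and medians, with no set test. The fits were tested on simulated data, with variances drawn from the prior of each fit. For a log2 change of 1 the TBBD comparison called 10 of 67 changed genes (14.9%) and the replicate comparison 65 of 67 (97.0%). For a log2 change of 2 the shares were 86.6% and 100%. The TBBD comparison can thus miss most changes of 1 log2 unit. Members, gene lists and tests were chosen with earlier results of these data known. Named members were a fixed set of core, isoform, F1 and c-ring genes, the 3 highest and 3 lowest per comparison on at least 3 probesets, and those past the threshold. For the other lists, the 2 genes with the largest replicate difference were eligible, on at least 3 probesets. Alternatives were another normalization, centring, the median over probesets, filters, other variance priors, the replicate block, each array left out and other member sets. With 4 arrays, their number sets the precision. R 4.3.3, limma 3.58.1, Python 3.11.15, numpy 2.4.6, pandas 2.3.3 and matplotlib 3.10.9 were used.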

Additional observations from a re-analysis of the deposited data

How the results depend on the processing

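For TBBD minus DMSO, 0 members and 0 of all genes were called by limma under every alternative run. The median over members, -0.029, lay between -0.085 and 0.039 when each array was left out, and was 0.039 without DMSO replicate 1. With the replicate block 0 members were called and the median was -0.029. Deviations from the group means correlated at 0.566 between TBBD 1 and DMSO 1 over all genes, but with 2 pairs and no label for a shared culture the numbers are not taken as pairs. For replicate 2 minus replicate 1, 1 member was called. There were 0 after quantile normalization again and 0 with an intensity trend, and 2 with median centring, with at least 3 probesets and with no treatment term, where NDUFA6 was joined by COX5B. With the median over probesets the 1 called member was COX5B, not NDUFA6. Over all genes 653 were called, and 1001 with no treatment term. The median over members was -0.075, and lay between -0.13 and -0.029 with each array left out, a fit with no residual degrees of freedom and so no test. Apart from leaving out arrays, 8 settings gave 349 values of the 45 named members for TBBD. Of these 329 moved by less than 1 SD between replicates and 11 changed sign. The filters, the variance priors and the replicate block cannot change a gene's difference in this balanced design, so their values were the same by construction. Only the median over probesets, the second normalization and the centring could move a value. For the replicate numbers 305 of 349 moved by less than 1 SD or, for the called NDUFA6, kept the call. A further 37 moved more, and 13 changed sign. The rest changed a call, with 3 values of NDUFA6 no longer called and 4 of COX5B newly called. Here too the filters, the variance priors and the dropped treatment term cannot change a gene's difference. With each array left out in turn, the range spanned 0 for 28 of the 45 for TBBD and 11 of the 45 for the replicate numbers. With NDUFA4 placed in complex IV, the medians of both complexes kept their sign in both comparisons. No value here separates the replicate numbers from a batch or a culture, and the cause of each change was not tested. The 4 arrays give the typical member an interval of 0.35 either side for TBBD and 0.28 for the replicate numbers.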

Other observations

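Several nuclear genes of the chain carry names outside the symbol rule or were renamed into it. NDUFAB1, the mitochondrial acyl carrier protein and a complex I subunit, had 6.54 (TBBD) and 6.56 (DMSO) on replicate 2, against 6.90 and 7.05 on replicate 1, or -0.42 ± 0.12 (SE, limma adjusted p = 0.113). CYC1, cytochrome c1 of complex III, stood at -0.11 ± 0.11 between the numbers and at 0.032 ± 0.12 for TBBD. UQCR10, a small subunit of complex III, stood at -0.044 ± 0.12 between the numbers, and its TBBD arrays, at 8.20 and 8.21, lay above the DMSO arrays, at 8.13 and 8.04, by 0.12 ± 0.11.

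ATP5IF1 encodes the inhibitor that stops the ATP synthase from running backwards. It had 6.48 (TBBD) and 6.59 (DMSO) on replicate 2, against 6.12 and 6.34 on replicate 1, or 0.30 ± 0.12 (SE, limma adjusted p = 0.234). It therefore lay higher on replicate 2 with both treatments, where 16 of the 18 ATP synthase members lay lower, and the difference did not pass the threshold. ATP5MJ and ATP5MK, small membrane subunits of the same enzyme, stood at 0.16 ± 0.11 and -0.25 ± 0.12. These genes were chosen by family and not by value.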
